A study of Rana pirica with 14 samples.

Results

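The interstitial matrix is the mesh of collagen fibrils, glycoproteins and water-holding proteoglycans that lies between cells. It was followed here through 67 probe sets of a frog expression array, out of 15491 that were tested. Where a symbol has several probe sets they are numbered in the order of their array identifiers. Members were taken by gene symbol, with no measured value in the rule, although earlier results of these data were known when it was written. They were the probe sets annotated with 1 symbol of a collagen other than type IV, fibronectin, a fibrillin, fibulin, tenascin C, thrombospondin, matrilin or SPARC, of a lysyl oxidase, a small proteoglycan, versican, aggrecan or hyaluronan synthase, or of a matrix metalloproteinase other than mmp11, an ADAM protease or a TIMP. The 67 probe sets carried 50 symbols, which fell to 45 genes, of 6505 named on the array, when the .L and .S copies of the Xenopus laevis genome were joined. By class there were 8 probe sets for fibrillar collagens, 7 for other collagens, 1 for a crosslinking enzyme, 20 for glycoproteins, 5 for proteoglycans and hyaluronan synthases, 10 for metalloproteinases, 11 for ADAM proteases and 5 for inhibitors. A further 3 probe sets with several symbols (col2a1 and thbs4 copies) were left out because the annotation did not settle on 1 copy. No probe set matched decorin, lysyl oxidase itself, periostin, aggrecan or an ADAMTS protease among the symbols used here.

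A tadpole tail holds muscle blocks, a notochord, skin and a fin whose core is loose connective tissue. Fibrillar collagens give that tissue its strength, and proteoglycans and hyaluronan hold water in it. Matrix metalloproteinases cut the fibrils, TIMPs block those proteases, and the tail is a classic place to see them at work, because thyroid hormone switches on several of the proteases when the tail is resorbed at metamorphosis.

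The samples were tail tissue of Rana pirica tadpoles, hybridised to a Xenopus laevis array, so all probes were designed on another frog. Cont tadpoles were kept without a predator for 8 days (2 arrays, after the authors set 1 aside for failed hybridisation). Drago tadpoles lived with a caged dragonfly larva for 8 days, and Salam tadpoles with larval salamanders for 8 days. The paper reports that salamanders bit some tadpoles and killed a few, and that the caged larvae harmed none. Predator and injury cannot be told apart in comparisons that involve the salamander groups. −Drago and −Salam tadpoles had the same predators for 4 days, after which the predators were taken away, and they too were sampled at day 8. Each of these 4 groups had 3 arrays, 14 arrays in all. Replicate arrays are described as biological in the labels, whereas the protocol puts the tails of a treatment into 1 tube, so p-values here measure the spread between arrays, which may be technical. In bulk tissue, fewer cells of a type and less RNA per cell cannot be told apart.

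Values are log2 signals centred on each probe set's median across the 14 arrays, so 0 is a probe set's own middle level. A value of 1 is 2 fold above it. The scale carries no absolute level, so the abundance of one gene could not be set against that of another, and whether a gene or a marker of the tail was detected at all could not be read from it. Arrays of one group resembled each other about as little as arrays of different groups. Over all 15491 probe sets the correlation between 2 arrays of a group ran from -0.0187 to 0.00998 (13 pairs), and between arrays of different groups from -0.0270 to 0.0127 (78 pairs). Over the 67 matrix probe sets the same ranges were -0.203 to 0.319 and -0.331 to 0.372, with medians of 0.021 and -0.014. A spiked control transcript of the array, Dap, stood above 1 on 6 arrays, at 3.12 to 4.12 (Cont replicate 1, Salam 1 and 2, Drago 1 and 2, −Salam 1). On the other 8, which include all −Drago arrays, it stood below 1, at -1.28 to -0.18. Comparisons below are linear model fits (limma) over all 14 arrays, with Benjamini-Hochberg adjusted p-values over all 15491 probe sets.

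No matrix probe set passed an adjusted p of 0.05 in an F test over the 5 groups or in any of the 8 comparisons between groups. Over all 15491 probe sets, 1 passed, outside the members and in Drago minus Salam (0.00646%). Unadjusted, the F test gave p under 0.05 for 5 of 67 matrix probe sets (7.46%), against 5.86% of all tested probe sets. Those 5 were timp2.S, col9a1.L, and 1 probe set each of fbn3.L, col3a1.S and thbs3.L. Within groups the matrix probe sets were spread by a median SD of 0.90 (lowest 0.28, for has2.S, highest 1.53), beside 0.98 for all tested. From the lowest to the highest of the 14 arrays, they covered 0.99 log2 units for one col1a1.S probe set and 5.23 for mmp3.L. No matrix probe set had a 95% interval that lay within 2 fold of no difference in any of the 8 comparisons (0.0646%, 0.0323%, 0.0387% and 0.0839% of all tested did in the 4 comparisons of 3 against 3 arrays, and 0% against Cont), so every interval reached past a 2 fold difference on at least 1 side.

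**Figure D1:**
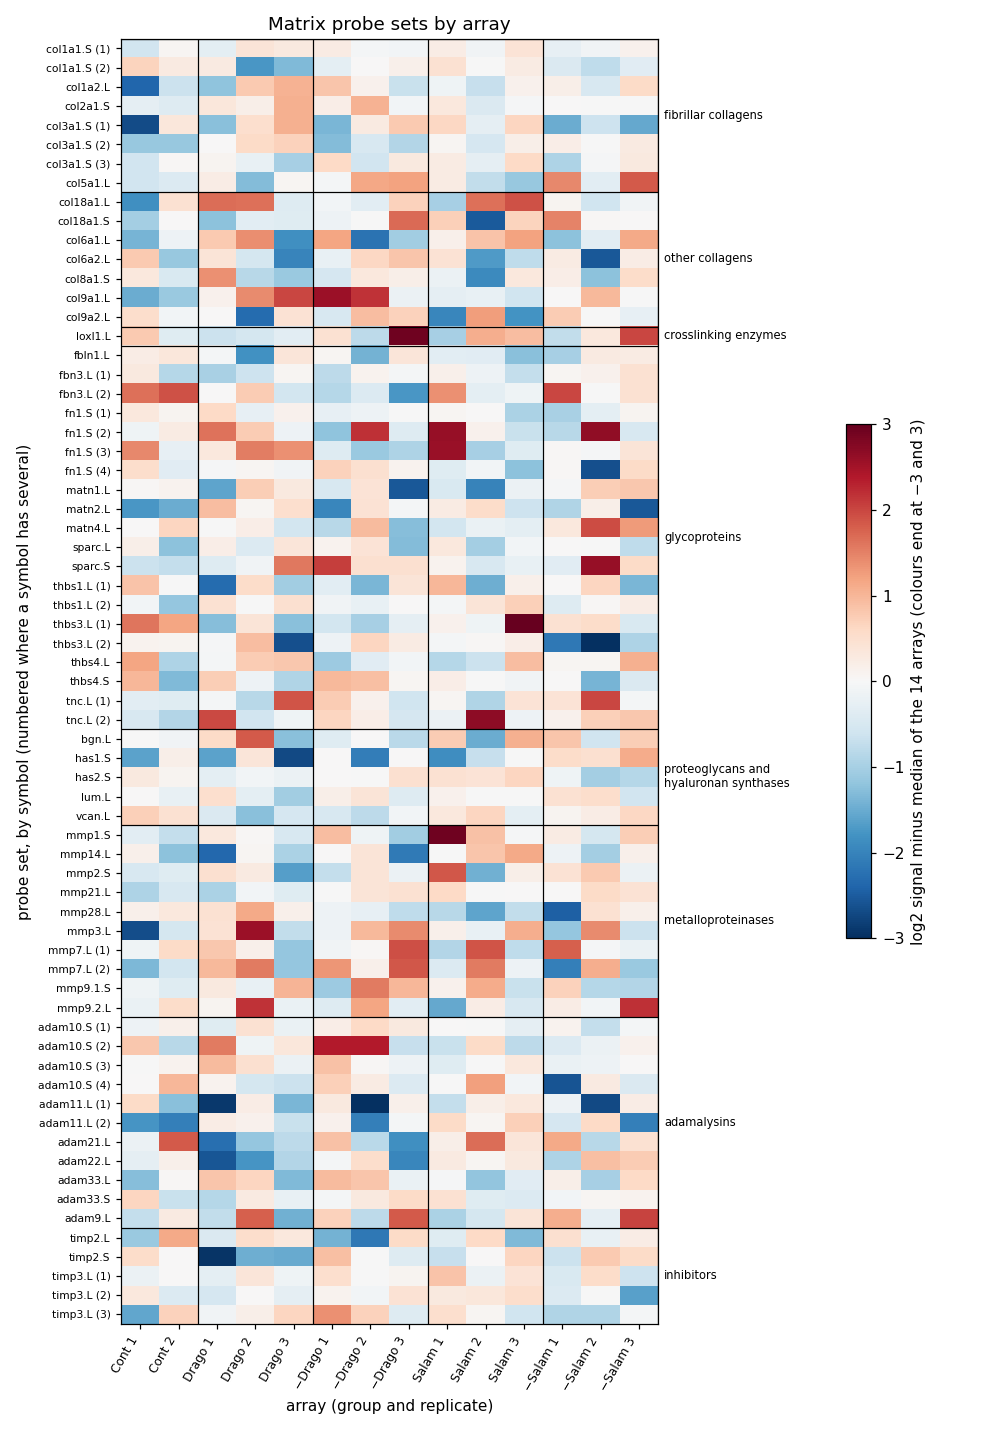
Colour map of the 67 matrix probe sets (rows, by class) on the 14 arrays (columns, by group), as log2 signal minus the median of the 14 arrays. Strong colours are scattered over single arrays, and the Drago arrays of timp2.S (-2.93, -1.45 and -1.50) are the one case where all 3 arrays of a predator group lie below the other 11.

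The fibrillar collagens make the tensile fibrils. Type I collagen, the main fibril of skin and fin, is built from the col1a1 and col1a2 chains, and the arrays gave no common direction for them. The first col1a1.S probe set had the narrowest range of all matrix probe sets and stood at -0.56 and 0.06 in Cont, -0.28, 0.39 and 0.29 in Drago, 0.24, -0.06 and -0.09 in −Drago, 0.22, -0.10 and 0.42 in Salam and -0.25, -0.11 and 0.14 in −Salam. All groups overlapped on it, and its Drago minus Cont difference was 0.38 (SE 0.53, limma adjusted p = 0.982), with a 95% interval of -0.75 to 1.52. The second stood at 0.67 and 0.28 in Cont, 0.27, -1.74 and -1.33 in Drago, -0.30, 0.01 and 0.15 in −Drago, 0.46, -0.01 and 0.25 in Salam and -0.44, -0.75 and -0.34 in −Salam. All Drago, −Drago and −Salam values lay below both Cont values, Drago replicate 1 by a narrow margin. Drago minus Cont was -1.41 (SE 0.63, limma adjusted p = 0.850). The col1a2.L probe set stood at -2.37 and -0.64 in Cont, -1.22, 0.79 and 1.04 in Drago, 0.83, 0.13 and -0.66 in −Drago, -0.13, -0.68 and 0.13 in Salam and 0.19, -0.47 and 0.57 in −Salam. Its low value was 1 Cont array, Drago replicate 1 lay inside the Cont range, and Drago minus Cont was 1.71 (SE 0.79, limma adjusted p = 0.868), or 0.84 without Cont replicate 1 and 2.58 without Cont replicate 2. So 1 probe set of each chain had an unadjusted p under 0.05, with opposite signs, and neither passed after adjustment.

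Type III collagen, the fibril of stretchable tissue, had 3 probe sets, all of the col3a1.S copy. The second of them had the smallest F test p-value of the fibrillar collagens (limma adjusted p = 0.835) and stood at -1.14 and -1.13 in Cont, 0.02, 0.58 and 0.68 in Drago, -1.29, -0.47 and -0.87 in −Drago, 0.06, -0.50 and 0.19 in Salam and 0.21, -0.02 and 0.26 in −Salam. Cont and −Drago lay low and together, while Drago and −Salam lay near or above 0. Drago minus Cont was 1.56 (SE 0.54, limma adjusted p = 0.808), Drago minus −Drago 1.30 (SE 0.48, limma adjusted p = 0.813) and −Salam minus Cont 1.28 (SE 0.54, limma adjusted p = 0.870). Drago was thus 2.94 fold above Cont, and −Drago minus Cont was 0.25 (SE 0.54, limma adjusted p = 0.999). The other 2 probe sets did not share this shape. The third had Drago values of 0.08, -0.21 and -1.0 beside -0.57 and 0.03 in Cont, and Drago minus Cont was -0.11 (SE 0.63, limma adjusted p = 0.996). The first had Cont arrays as far apart as -2.68 and 0.33, and its sign against Cont changed in Drago and −Drago when Cont replicate 1 was left out and in −Salam when Cont replicate 2 or −Salam replicate 1 or 3 was.

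Type II collagen, the fibril of cartilage and of the notochord sheath, had 1 probe set of the col2a1.S copy, at -0.26 and -0.40 in Cont, 0.34, 0.17 and 1.06 in Drago, 0.21, 1.04 and -0.07 in −Drago, 0.31, -0.42 and -0.04 in Salam and 0.01, -0.02 and -0.01 in −Salam. All Drago, −Drago and −Salam arrays lay above both Cont arrays, and Drago minus Cont was 0.85 (SE 0.57, limma adjusted p = 0.941). col5a1.L, a chain of the type V collagen that sets fibril width, stood at 0.24, -0.73 and -1.14 in Salam and 1.43, -0.32 and 1.84 in −Salam. Its Salam minus −Salam difference was -1.53 (SE 0.69, limma adjusted p = 0.905), and the groups overlapped. Over the 8 fibrillar probe sets the median difference from Cont was 0.62 for Drago, 0.45 for Salam, 0.55 for −Drago and 0.25 for −Salam. Over all tested probe sets the 4 medians were -0.01, -0.02, -0.004 and -0.01. All 4 of these differences use the same 2 Cont arrays.

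Among the non-fibrillar collagens, col9a1.L stood out. Type IX collagen coats the surface of type II fibrils in cartilage and notochord. Its values were -1.49 and -1.11 in Cont, 0.12, 1.41 and 2.01 in Drago, 2.56, 2.16 and -0.17 in −Drago, -0.27, -0.22 and -0.60 in Salam and 0.00, 0.98 and 0.00 in −Salam. Both Cont arrays lay below all 12 others, −Drago replicates 1 and 2 and Drago replicates 2 and 3 were the highest, and all 3 Salam arrays were a little below 0. Drago minus Cont was 2.48 (SE 0.80, limma adjusted p = 0.801), or 5.59 fold, and −Drago minus Cont was 2.82 (SE 0.80, limma adjusted p = 0.953), or 7.04 fold. With salamanders it was 0.94 (SE 0.80, limma adjusted p = 0.998), and Drago minus Salam, 1.55 (SE 0.72, limma adjusted p = 0.865), had groups that did not overlap. A probe set on which all arrays of a group lay beyond every other array was found for Cont in 2 of 67 (col9a1.L and sparc.S, both low), beside 2.16% of all tested. For Salam and −Drago there was none (0.471% and 0.516% of all tested).

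Its partner chain did not follow. The col9a2.L probe set had Drago values of 0.02, -2.32 and 0.43 against 0.54 and -0.08 in Cont, so Drago minus Cont was -0.85 (SE 0.99, limma adjusted p = 0.978). col6a1.L and col6a2.L, chains of the beaded filaments around muscle fibres, differed from Cont in Drago by 0.88 and -0.53. col8a1.S, a short-chain network collagen, and the 2 copies of col18a1, which sits at the basement membrane although the symbol rule takes it in, had no unadjusted p under 0.05 in any comparison. loxl1.L, a lysyl oxidase-like enzyme that crosslinks fibres, was the one crosslinking member and stood at 0.46, -0.79 and 2.92 in −Drago, beside 0.79 and -0.36 in Cont. These non-fibrillar and crosslinking probe sets other than col9a1.L were named after their values were seen.

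The glycoproteins link fibrils to cells and to each other. Fibronectin, which binds collagen and cell surface integrins, had 4 probe sets of fn1.S. Their Drago minus Cont differences were -0.04 on the first, 0.68 on the second, 0.48 on the third and -0.12 on the fourth, each smaller than its standard error. Only the third had an unadjusted p under 0.05 anywhere, with 0.32, 1.54 and 1.38 in Drago and -0.39, -1.11 and -0.92 in −Drago. These groups did not overlap, and the difference was 1.89 (SE 0.81, limma adjusted p = 0.843). The same contrast was 0.30 (SE 0.52, limma adjusted p = 0.991) on the first and 0.55 (SE 1.08, limma adjusted p = 0.991) on the second. On the fourth it ran the other way, at -0.45 (SE 0.72, limma adjusted p = 0.991), with all Drago arrays (-0.03, 0.05 and -0.11) below all −Drago arrays (0.68, 0.49 and 0.10).

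Fibrillin forms the microfibrils on which elastic fibres are laid. The second fbn3.L probe set stood at 1.65 and 1.90 in Cont, 0.01, 0.76 and -0.56 in Drago, -0.84, -0.41 and -1.75 in −Drago, 1.36, -0.29 and -0.14 in Salam and 2.01, -0.01 and 0.46 in −Salam. Both Cont arrays were high, all −Drago arrays were below 0, and only −Salam replicate 1 exceeded Cont. −Drago minus Cont was -2.78 (SE 0.75, limma adjusted p = 0.953), or 6.86 fold lower, Drago minus Cont -1.70 (SE 0.75, limma adjusted p = 0.850) and −Drago minus −Salam -1.82 (SE 0.67, limma adjusted p = 0.894). On the first, −Drago stood at -0.78, 0.10 and -0.05 and Cont at 0.29 and -0.85, and they differed by 0.04 (SE 0.60, limma adjusted p = 0.999).

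The thrombospondins are multidomain glycoproteins that bind collagens and other matrix proteins. The 2 probe sets of thbs3.L had different patterns. On the first the values were 1.61 and 1.18 in Cont, -1.29, 0.38 and -1.25 in Drago, -0.55, -0.99 and -0.26 in −Drago, 0.13, -0.13 and 3.11 in Salam and 0.47, 0.56 and -0.47 in −Salam. Cont was high, and Drago, −Drago and −Salam lay below it on every array, as did Salam except on replicate 3. Drago minus Cont was -2.11 (SE 0.88, limma adjusted p = 0.839) and −Drago minus Cont -1.99 (SE 0.88, limma adjusted p = 0.986). −Salam minus Cont was -1.21 (SE 0.88, limma adjusted p = 0.966). On the second they were 0.12 and 0.08 in Cont, -0.03, 0.92 and -2.63 in Drago, -0.15, 0.65 and 0.26 in −Drago, -0.06, 0.03 and 0.20 in Salam and -2.13, -3.95 and -0.93 in −Salam. All 3 −Salam arrays were low there, as was Drago replicate 3. −Salam minus Cont was -2.44 (SE 0.95, limma adjusted p = 0.870), or 5.42 fold lower, Salam minus −Salam 2.40 (SE 0.85, limma adjusted p = 0.869) and −Drago minus −Salam 2.59 (SE 0.85, limma adjusted p = 0.841). Without −Salam replicate 2, Salam minus −Salam was 1.59. The 3 notochord and cartilage marker probe sets found outside the members (of 7 genes listed) also had their lowest mean level in −Salam, -1.16 to -0.36 per array beside -0.33 to 0.69 in the other groups, with 0 of them past the test. col9a1.L, on the same marker list but a member, went the other way, with −Salam minus Cont at 1.63 (SE 0.80, limma adjusted p = 0.878). The part of notochord and cartilage content in this result was not tested.

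Matrilins connect collagen fibrils and proteoglycans. matn2.L stood at -1.75 and -1.48 in Cont, 0.92, 0.07 and 0.50 in Drago, -1.97, 0.43 and -0.07 in −Drago, 0.25, 0.55 and -0.61 in Salam and -0.91, 0.16 and -2.55 in −Salam. Cont was low on both arrays. Drago and Salam were above Cont on every array, by 2.11 (SE 0.84, limma adjusted p = 0.837) and 1.68 (SE 0.84, limma adjusted p = 0.982), while 1 array each of −Drago and −Salam lay below Cont. matn4.L was high in −Salam (0.33, 1.97 and 1.29) against Salam (-0.54, -0.20 and -0.29), a difference of -1.54 (SE 0.64, limma adjusted p = 0.893) for Salam minus −Salam. SPARC, a collagen-binding protein made where matrix is being built, had 1 probe set for each copy. sparc.S stood at -0.66 and -0.73 in Cont, -0.39, -0.10 and 1.59 in Drago, 2.07, 0.48 and 0.49 in −Drago, 0.10, -0.48 and -0.22 in Salam and -0.34, 2.60 and 0.57 in −Salam, with Cont below every other array by a narrow margin, and its largest difference from Cont was 1.70 (SE 0.86, limma adjusted p = 0.999), in −Drago. sparc.L differed from Cont by 0.59 in Drago and 0.27 in Salam, and both signs turned without Cont replicate 2.

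**Figure D2:**
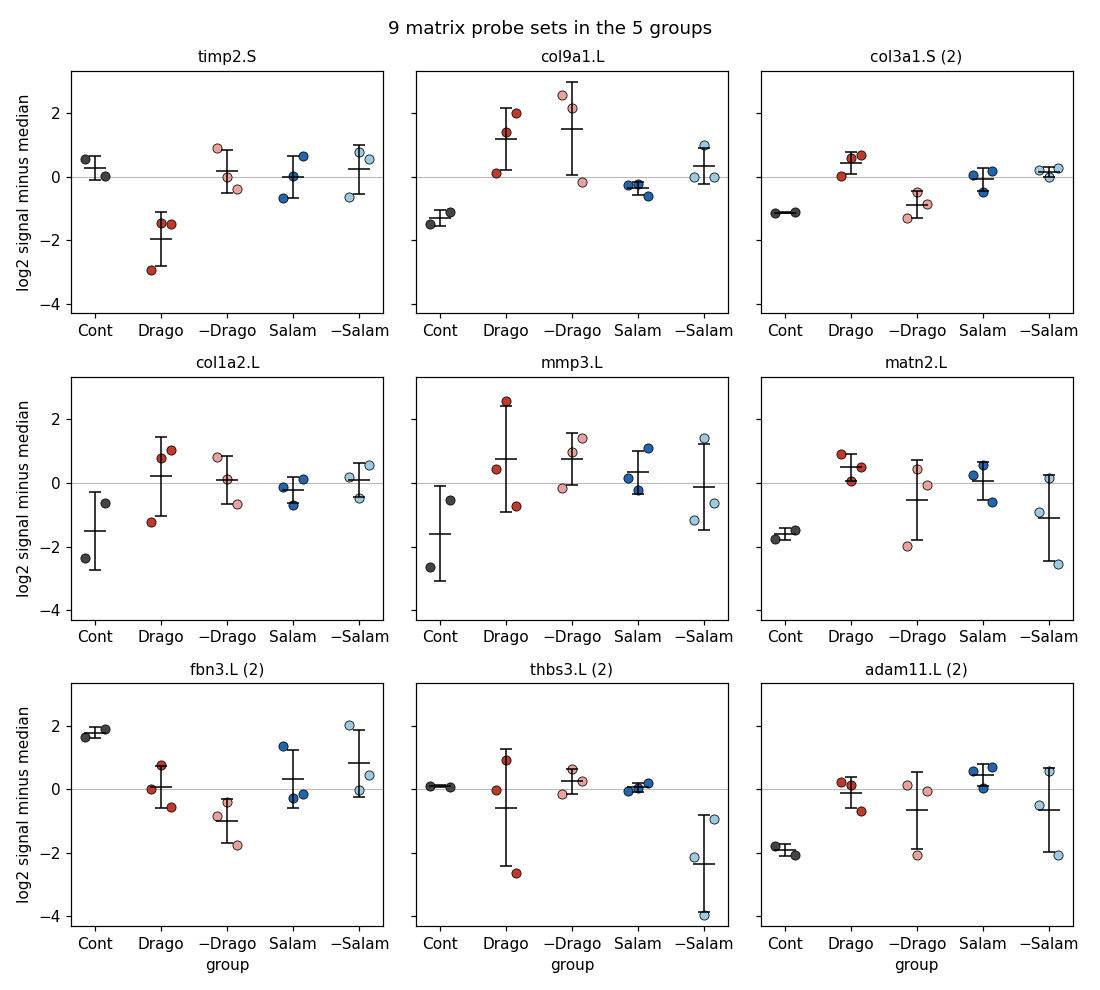
Log2 signal minus the median of the 14 arrays for 9 matrix probe sets, by group. Each had an unadjusted p under 0.05 in a comparison with Cont. The other probe sets of col3a1.S, fbn3.L, thbs3.L and adam11.L are not shown. Points are arrays (2 in Cont, 3 elsewhere), and the bars give the mean and SD of a group. timp2.S is low on the 3 Drago arrays alone, while col9a1.L is low in Cont and spread widely in Drago and −Drago.

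Versican is a large proteoglycan that binds hyaluronan and so holds water. Its probe set, vcan.L, stood at 0.71 and 0.47 in Cont, -0.44, -1.26 and -0.50 in Drago, -0.49, -0.79 and -0.09 in −Drago, 0.33, 0.65 and -0.29 in Salam and 0.09, 0.21 and 0.63 in −Salam. All Drago and all −Drago values were below both Cont values. Drago minus Cont was -1.32 (SE 0.56, limma adjusted p = 0.850) and −Drago minus Cont -1.04 (SE 0.56, limma adjusted p = 0.999). vcan.L was outside the rule for named genes and was picked after its values were seen. Of the small leucine-rich proteoglycans that decorate fibrils, lum.L (lumican) differed from Cont by -0.17 in Drago and 0.15 in Salam, and bgn.L (biglycan) by 0.44 and 0.17. Their 95% intervals in Drago were -1.47 to 1.13 and -1.50 to 2.39.

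Hyaluronan synthases spin out the polysaccharide itself. has2.S had the smallest spread within groups of all matrix probe sets, at 0.30 and 0.08 in Cont, -0.30, -0.09 and -0.18 in Drago, 0.01, -0.01 and 0.48 in −Drago, 0.45, 0.42 and 0.66 in Salam and -0.12, -1.02 and -0.86 in −Salam. All 3 Salam arrays lay above all −Salam arrays, by 1.18 (SE 0.47, limma adjusted p = 0.893). All 3 Drago arrays lay below all −Drago arrays, with a difference of -0.35 (SE 0.47, limma adjusted p = 0.985). has1.S, also named after its values were seen, was the one matrix probe set on which −Salam (0.54, 0.49 and 1.11) lay above the 11 other arrays. On 0.6% of all tested probe sets the −Salam arrays lay beyond every other array, above or below. For has1.S, −Salam minus Cont was 1.43 (SE 0.94, limma adjusted p = 0.959).

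The metalloproteinases cut the matrix. mmp3.L, whose symbol in mammals stands for a stromelysin, a protease of proteoglycans and fibronectin, had the widest range of all matrix probe sets, at -2.66 and -0.53 in Cont, 0.44, 2.57 and -0.74 in Drago, -0.16, 0.96 and 1.43 in −Drago, 0.16, -0.23 and 1.09 in Salam and -1.15, 1.42 and -0.64 in −Salam. Cont replicate 1 was the lowest array and Drago replicate 2 the highest. Drago minus Cont was 2.35 (SE 1.02, limma adjusted p = 0.850), or 5.09 fold, although Drago replicate 3 lay below Cont replicate 2, and it was 1.28 without Cont replicate 1. −Drago minus Cont was 2.34 (SE 1.02, limma adjusted p = 0.981), or 5.05 fold, with no overlap (1.27 without Cont replicate 1). Salam minus Cont was 1.93 (SE 1.02, limma adjusted p = 0.985), also with no overlap. In −Salam the values were -1.15, 1.42 and -0.64, spread on both sides of Cont replicate 2. The annotation that shipped with the study names this probe set as a collagenase, mmp13, so its identity depends on the annotation used.

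mmp1.S, an interstitial collagenase that makes the first cut in type I fibrils, stood at -0.31 and -0.71 in Cont, 0.33, 0.04 and -0.47 in Drago, 0.93, -0.12 and -1.04 in −Drago, 2.92, 0.89 and -0.04 in Salam and 0.24, -0.52 and 0.74 in −Salam. All 3 Salam arrays lay above both Cont arrays, by 1.77 (SE 0.83, limma adjusted p = 0.980), of which Salam replicate 1 carried most. mmp14.L, a membrane protease that activates mmp2, was -0.01, 0.84 and 1.13 in Salam and -2.35, 0.05 and -0.94 in Drago, with Drago minus Salam at -1.73 (SE 0.78, limma adjusted p = 0.865). The groups overlapped on it. The gelatinases, which digest denatured collagen, gave imprecise differences. mmp2.S differed from Cont by 0.11 in Drago and 0.61 in Salam, mmp9.1.S by 0.61 and 0.44, and mmp9.2.L by 0.51 and -0.78. Each of these differences was smaller than its standard error, which was 0.88, 0.83 and 0.90 for the 3 probe sets. mmp28.L, an epidermal member of the family in mammals, was above Salam on all Drago arrays, by 1.63 (SE 0.69, limma adjusted p = 0.865). mmp7.L, matrilysin, a small protease made by epithelia in mammals, had 2 probe sets. The second stood at -1.34 and -0.56 in Cont, 0.98, 1.56 and -1.16 in Drago, 1.33, 0.15 and 1.86 in −Drago, -0.41, 1.56 and -0.15 in Salam and -2.04, 1.09 and -1.10 in −Salam. All Salam and all −Drago arrays lay above both Cont arrays, −Drago by 2.06 (SE 1.0, limma adjusted p = 0.999). −Drago minus −Salam was 1.80 (SE 0.90, limma adjusted p = 0.940), with groups that overlapped. On the first these differences were 0.40 and 0.10. No probe set with the symbol mmp8 or mmp13 was among the members.

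The ADAM proteins are membrane proteases that shed surface proteins, and some, such as ADAM11 and ADAM22, lack protease activity and are known as neural adhesion proteins in mammals. The second adam11.L probe set stood at -1.77 and -2.05 in Cont, 0.22, 0.13 and -0.67 in Drago, 0.14, -2.06 and -0.05 in −Drago, 0.57, 0.05 and 0.71 in Salam and -0.50, 0.59 and -2.06 in −Salam. Drago and Salam lay above both Cont arrays on all arrays, and Salam minus Cont was 2.36 (SE 0.81, limma adjusted p = 0.860), or 5.12 fold, with Drago minus Cont at 1.80 (SE 0.81, limma adjusted p = 0.853). 1 array each of −Drago and −Salam was as low as Cont. The first adam11.L probe set had a Salam minus Cont difference of 0.27 (SE 1.20, limma adjusted p = 0.999) and a Drago minus Cont difference of -1.01 (SE 1.20, limma adjusted p = 0.978).

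adam21.L stood at -0.17 and 1.85 in Cont, -2.27, -1.15 and -0.78 in Drago, 0.89, -0.81 and -1.85 in −Drago, 0.17, 1.69 and 0.36 in Salam and 1.13, -0.84 and 0.45 in −Salam. Drago was below Cont and below Salam on every array, the differences being -2.24 (SE 0.91, limma adjusted p = 0.839) and -2.14 (SE 0.82, limma adjusted p = 0.836). The first was -3.25 without Cont replicate 1 and -1.23 without Cont replicate 2. adam22.L stood at -0.26 and 0.14 in Cont, -2.56, -1.78 and -0.87 in Drago, -0.06, 0.53 and -1.96 in −Drago, 0.27, 0.06 and 0.29 in Salam and -0.93, 0.91 and 0.77 in −Salam, again with Drago below Cont and Salam on every array, and with −Drago replicate 3 and −Salam replicate 1 inside the Drago range. Drago minus Salam was -1.94 (SE 0.72, limma adjusted p = 0.821) and Drago minus Cont -1.68 (SE 0.80, limma adjusted p = 0.882). ADAM10, a widely used sheddase, had 4 probe sets of adam10.S, and none reached an unadjusted p under 0.05 against Cont. The epidermal marker list, 16 probe sets of 7 genes, had a mean level of 0.27 to 0.47 on the Drago arrays and -0.47 to -0.10 on the Salam arrays, with 0 probe sets past the test in Drago minus Salam. On the Cont arrays the level of this list was -0.05 and 0.58, on both sides of the Drago range. Its part in the differences between the predators was not tested.

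The inhibitors close the list. TIMP2 blocks metalloproteinases and, with mmp14, takes part in activating mmp2. timp2.S had the smallest F test p-value of all matrix probe sets (limma adjusted p = 0.746) and stood at 0.55 and 0.01 in Cont, -2.93, -1.45 and -1.50 in Drago, 0.90, -0.01 and -0.40 in −Drago, -0.68, 0.02 and 0.64 in Salam and -0.65, 0.77 and 0.57 in −Salam. The 3 Drago arrays lay below the 11 others, whose lowest value was -0.68. Drago arrays lay beyond every other array, above or below, on 1 of 67 matrix probe sets, beside 0.62% of all tested. Drago minus Cont was -2.25 (SE 0.71, limma adjusted p = 0.801), Drago minus −Drago -2.13 (SE 0.63, limma adjusted p = 0.711) and Drago minus Salam -1.96 (SE 0.63, limma adjusted p = 0.758), which is 4.74, 4.37 and 3.88 fold lower. −Drago minus Cont was -0.12 (SE 0.71, limma adjusted p = 0.999).

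The other TIMP probe sets did not share it. timp2.L stood at -1.11 and 1.13 in Cont, -0.44, 0.52 and 0.31 in Drago, -1.43, -2.14 and 0.56 in −Drago, -0.37, 0.61 and -1.32 in Salam and 0.49, -0.21 and 0.21 in −Salam. Its 2 Cont arrays lay far apart, and Drago minus Cont was 0.12 (SE 0.87, limma adjusted p = 0.996). TIMP3, the inhibitor that stays bound to the matrix, had 3 probe sets of timp3.L with Drago minus Cont differences of 0.07, -0.22 and 0.69 and Salam minus Cont differences of 0.45, 0.44 and 0.44. None of the 3 had an unadjusted p under 0.05 in any comparison with Cont.

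Across the whole set, Drago minus Cont was the comparison with the most small p-values, with 12 of 67 matrix probe sets at an unadjusted p under 0.05 (17.9%) beside 5.65% of all tested. Of the 12, 6 were higher in Drago (8.96%, beside 3% of all tested, col9a1.L, the second col3a1.S, matn2.L, mmp3.L, the second adam11.L and col1a2.L) and 6 lower (8.96%, beside 2.65%, timp2.S, adam21.L, the first thbs3.L, vcan.L, the second fbn3.L and the second col1a1.S). The smallest adjusted p among the 12 was 0.801. The other probe sets of these symbols had no unadjusted p under 0.05 in Drago minus Cont. Those of adam11.L and col1a1.S and the third of col3a1.S had the opposite sign. The first of col3a1.S and those of thbs3.L and fbn3.L had the same sign. The count of 12 depended on single arrays. It was 4 without Cont replicate 1 and 7 without Drago replicate 1, and it was 11 with the high and low Dap arrays fitted as a block. More than 5 fold from Cont were 2 probe sets in Drago (2.99%, beside 2.03% of all tested), which were col9a1.L and mmp3.L. This count was 7 without Cont replicate 2, 5 without Drago replicate 2, 4 without Drago replicate 3 and 1 without Cont replicate 1.

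The other comparisons with Cont were nearer the background. Salam minus Cont had 1 of 67 at an unadjusted p under 0.05 (1.49%, beside 5% of all tested), −Drago minus Cont 4 (5.97%, beside 4.94%) and −Salam minus Cont 2 (2.99%, beside 5.69%). More than 5 fold from Cont were the second adam11.L in Salam (1 of 67, beside 1.93%), col9a1.L, mmp3.L and the second fbn3.L in −Drago (3 of 67, beside 1.68%) and the second thbs3.L in −Salam (1 of 67, beside 2.01%). Without Cont replicate 2 these counts were 3, 6 and 4, and without −Salam replicate 2 the last was 0. Differences from Cont were above 0 for 36 matrix probe sets in Drago (53.7%, beside 49.4% of all tested), 45 in −Drago (67.2%, beside 49.8%), 37 with Salam (55.2%, beside 49.1%) and 39 with −Salam (58.2%, beside 49.4%). Arrays did not overlap with Cont on 15 in Drago (22.4%, beside 19.8%), 15 in −Drago (22.4%, beside 20.5%), 19 with Salam (28.4%, beside 20.1%) and 15 with −Salam (22.4%, beside 20%). Of the matrix probe sets, 7 had their lowest value on Cont replicate 1 and 4 on Cont replicate 2, a count that was not made over all tested.

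**Figure D3:**
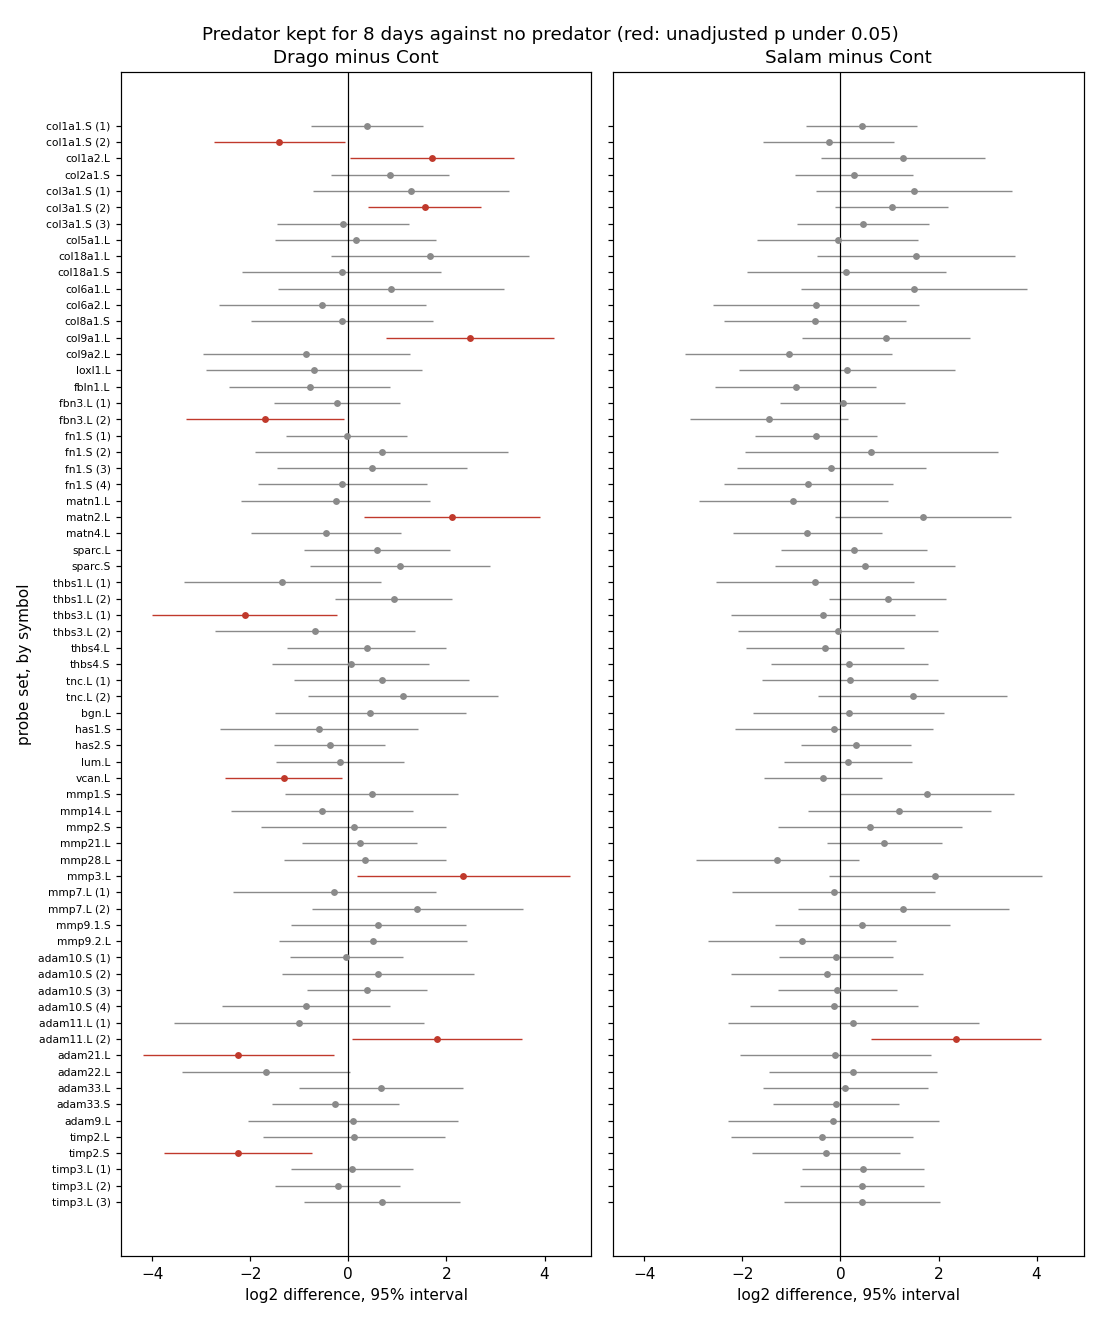
Log2 difference from Cont with its 95% interval for the 67 matrix probe sets, for Drago (left) and Salam (right). Red marks an unadjusted p under 0.05, which 12 probe sets had in Drago and 1, the second of adam11.L, in Salam, and none of the red points passed after adjustment.

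Between predators kept and predators removed, Drago minus −Drago had 3 of 67 at an unadjusted p under 0.05 (4.48%, beside 5.74% of all tested), timp2.S, col3a1.S (the second probe set) and fn1.S (the third). Salam minus −Salam had 4 (5.97%, beside 5.49%), thbs3.L (the second probe set), has2.S, matn4.L and col5a1.L. Between the predators, Drago minus Salam had 7 (10.4%, beside 5.71%), with timp2.S, adam22.L, adam21.L, thbs3.L (the first probe set, not the second) and mmp14.L lower in Drago (5 of 67, beside 2.61%) and mmp28.L and col9a1.L higher (2 of 67, beside 3.1%). That count was 3 without Salam replicate 2 or without Drago replicate 1, and 4 without Drago replicate 3. On the first thbs3.L probe set Drago minus Salam was -1.76, and -2.34 to -0.72 with single arrays left out. Salam replicate 3 stood at 3.11 there, beside 0.13 and -0.13 on the other Salam arrays. After removal, −Drago minus −Salam had 3 (4.48%, beside 5.4%), thbs3.L (the second probe set), fbn3.L (the second) and matn4.L. Groups of 3 and 3 arrays did not overlap on 9 matrix probe sets in Drago minus −Drago (13.4%, beside 10.6% of all tested), 9 in Salam minus −Salam (13.4%, beside 10.1%), 9 in Drago minus Salam (13.4%, beside 10.3%) and 11 in −Drago minus −Salam (16.4%, beside 10.4%). An exact permutation test of 3 against 3 arrays cannot give a two-sided p below 0.1, so none was used for single probe sets. The difference between the kept minus removed differences of the 2 predators had 3 of 67 at an unadjusted p under 0.05 (4.48%, beside 5.55%), thbs3.L (the second probe set), has2.S and col3a1.S (the second).

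Counted by class, the medians stayed within 1 log2 unit of 0 for every class of more than 1 probe set in the comparisons with Cont. In Drago minus Cont the median difference was 0.41 over the 10 metalloproteinase probe sets (8 of them above 0), -0.04 over the 11 ADAM probe sets (5 above 0), 0.07 over the 5 TIMP probe sets (3 above 0), 0.01 over the 20 glycoprotein probe sets (10 above 0) and -0.38 over the 5 probe sets of proteoglycans and hyaluronan synthases (1 above 0). In Salam minus Cont the same medians were 0.75, -0.09, 0.44, -0.11 and 0.15. Over all 67 they were 0.10 in Drago and 0.13 in Salam. The metalloproteinase medians were above 0 in all 4 comparisons with Cont, at 0.42 in −Drago and 0.45 in −Salam, which share the 2 Cont arrays, and were -0.14 in Drago minus −Drago and 0.16 in Salam minus −Salam.

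Several genes had more than 1 probe set, which allowed a check within the arrays. Over the 14 arrays, the 25 pairs of matrix probe sets that share a symbol (11 symbols) had a median correlation of 0.12, from -0.47 for the pair of col1a1.S to 0.64 for the first and the second probe set of timp3.L. Only 2 pairs exceeded 0.5, the other joining the second and the third probe set of adam10.S (0.54), and 7 were below 0. The pairs are not independent of each other, because adam10.S and fn1.S gave many of them. Some of those probe sets also come from the same sequence record. All 2712 pairs of probe sets sharing a symbol had a median of 0.01, with 4.02% above 0.5 and 1336 pairs below 0. Of the 5 pairs that joined an .L to an .S copy, 4 were below 0, with a median of -0.11, and timp2.L with timp2.S was the lowest at -0.29. The 2 probe sets of col1a1.S had opposite signs in all 4 comparisons with Cont, as did the 2 of thbs1.L.

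**Figure D4:**
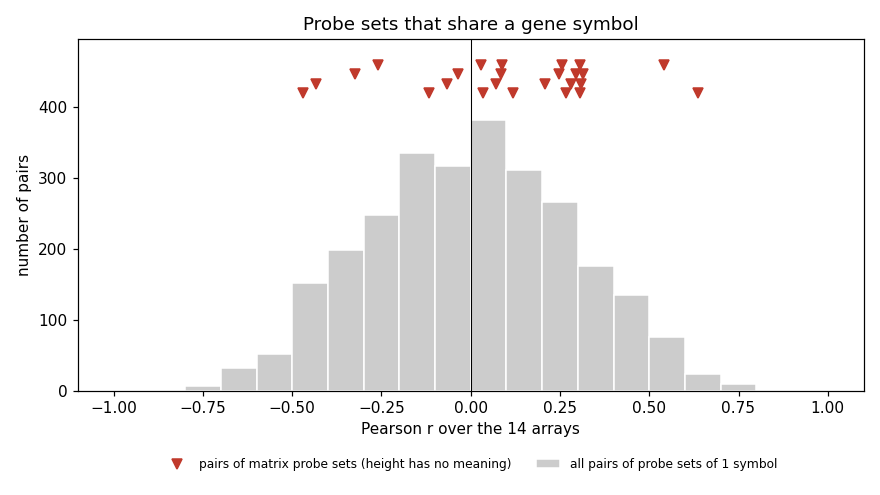
Pearson correlation over the 14 arrays for pairs of probe sets that share a gene symbol. Grey bars count all 2712 pairs, of which 1336 lie below 0. Red triangles mark the 25 matrix pairs, of which 2 lie above 0.5 and 7 below 0.

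Genes that act on the matrix without belonging to the members were counted in the same fits. Of 24 probe sets for collagen processing (13 genes found of 19 listed), 39 for cell surface receptors (19 of 28), 5 for basement membrane (3 of 22) and 14 for thyroid hormone response and tail resorption (10 of 13), 0 passed the adjusted test in any comparison. In Drago minus Cont, unadjusted p-values under 0.05 numbered 0 higher and 1 lower for collagen processing, 1 and 2 for receptors, 1 and 0 for basement membrane and 0 and 0 for tail resorption genes. The receptor with the smallest p was sdc2.S, a syndecan, a heparan sulfate proteoglycan of the cell surface, at -2.44 in Drago minus Cont (SE 0.65, limma adjusted p = 0.601) and -2.45 in Drago minus Salam (SE 0.59, adjusted p = 0.532). It was also lower in −Salam than in Cont, at -1.46 (SE 0.65, limma adjusted p = 0.870). Salam minus −Salam was 1.47 on it (SE 0.59, limma adjusted p = 0.893). col4a2.L, a basement membrane collagen chain, was above Cont by 2.96 in Drago (SE 0.76, adjusted p = 0.601), 2.35 in Salam and 1.86 in −Drago. These differences share the 2 Cont arrays, whose mean on it was -1.93. Over the 5 basement membrane probe sets the median differences from Cont were -0.23 in Drago, 0.20 in Salam and 0.34 in −Drago. mmp11.L, stromelysin 3, which thyroid hormone induces in the resorbing tail, had its one unadjusted p under 0.05 in −Drago minus −Salam, at -2.32 (SE 0.92, adjusted p = 0.894).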

How the data were processed

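Total RNA from tail tissue was labelled with biotin and hybridised to Affymetrix Xenopus laevis arrays. Per the labels and the study's methods, the authors read the scans with GCOS, summarised probes with MAS5 and deposited log2 signals minus the median of each probe set over 14 arrays. The base of the logarithm was inferred from the size of the folds. Of 15611 probe sets, 120 were controls and 15491 were tested. Through the platform annotation, 9304 of these had 1 gene symbol, 195 had several and 5992 had none. limma 3.58.1 in R 4.3.3 fitted group means with no further normalization, and eBayes tests gave the F test and 8 comparisons, with Benjamini-Hochberg adjustment. The model was run on simulated data with 200 changed probe sets. How many of these it called is not given here, so the run is no measure of its power. Named were the 10 probe sets with the smallest p-value in the F test, the 5 smallest in each comparison, those over 5 fold from Cont, and a fixed list (type I, II and III collagens, fibronectin, gelatinases, collagenases, mmp14, TIMPs, SPARC and small proteoglycans). Members, lists and tests were chosen with earlier results of these data known. Alternatives covered scaling, the test, the samples fitted, blocks by replicate number and by Dap, and leaving out each array. Precision is limited by the number of arrays.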

Additional observations from a re-analysis of the deposited data

Results flagged for a closer look

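has2.S, a hyaluronan synthase, was the one matrix probe set whose arrays separated in opposite directions for the 2 predators. All 3 Drago arrays (-0.30, -0.09 and -0.18) lay below all 3 −Drago arrays (0.01, -0.01 and 0.48), while all 3 Salam arrays (0.45, 0.42 and 0.66) lay above all 3 −Salam arrays (-0.12, -1.02 and -0.86). The difference between these differences was -1.53 on the log2 scale (SE 0.67, limma adjusted p = 0.900). On the Drago side the margin was narrow, with the nearest arrays at -0.09 and -0.01. Groups did not overlap on 10.6% of all tested in Drago minus −Drago and on 10.1% in Salam minus −Salam. The share of all tested that separated in opposite directions was not counted. has2.S was picked by that separation, so its p-value from the same arrays adds no support. The contrast between the 2 differences was added after the data had been seen. At an unadjusted p under 0.05 it held 3 of 67 matrix probe sets (4.48%, beside 5.55% of all tested), the others being thbs3.L, the second probe set, at -3.23 and col3a1.S, the second probe set, at 1.54.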

How the results depend on the processing

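Under every alternative run, 0 matrix probe sets passed the adjusted test. The counts at an unadjusted p under 0.05 did depend on the processing. For Salam minus Cont the count of 1 became 2 with arrays centred on their medians, with the Dap block or with only the 2 groups fitted, and 5 with the ordinary test, which also took −Salam minus Cont from 2 to 6. Arrays of the same replicate number correlated at -0.0194 to 0.0161 after group means were removed (26 pairs, 0 of them over 0.1). For arrays of different numbers the range was -0.0258 to 0.0291. Correlations over all probe sets would miss a shared effect on few of them. The arrays with high Dap were all replicates 1 or 2, and every replicate 3 array was low. Whether arrays of 1 number were handled together was not tested. With a replicate block the F test count went from 5 to 3, Salam minus Cont to 4, Drago minus Salam from 7 to 4 and Drago minus Cont from 12 to 8. The 1 probe set of all tested that passed in Drago minus Salam, which is not a matrix gene, fell to 0 with the replicate block, with only those groups fitted, and without any one Drago or Salam array. Counts over 5 fold from Cont in Drago went from 2 to 1 with quantile normalization, 6 over 4 fold and 0 over 8 fold. With single arrays left out, the counts over 5 fold from Cont ran from 1 to 7 in Drago, 1 to 3 in Salam, 2 to 6 in −Drago and 0 to 4 in −Salam.

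With single arrays left out, the unadjusted counts ran from 2 to 6 for the F test, 4 to 13 for Drago minus Cont, 1 to 4 for Salam minus Cont (4 without Cont replicate 2), 4 to 6 for −Drago minus Cont, 0 to 4 for −Salam minus Cont (0 without Cont replicate 1, 4 without −Salam replicate 2), 2 to 5 for Drago minus −Drago (5 without −Drago replicate 3), 1 to 5 for Salam minus −Salam (1 without −Salam replicate 3), 3 to 7 for Drago minus Salam and 2 to 6 for −Drago minus −Salam (6 without −Drago replicate 2). For the contrast between the 2 removals the range was 1 to 5. The cause of these shifts was not tested.

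Of 156 gene differences named, 60 turned sign when 1 array or another was left out, the largest of them 1.28 in size. Under the other settings 14 turned sign, each 0.36 or less in size (16 values, 10 with the ratio of linear means, 5 with the replicate block and 1 with the Dap block). Of the 33 at an unadjusted p under 0.05, 0 turned sign under any setting run. These 33 were selected on the same arrays for large differences beside their standard errors, so a turn was unlikely from the start. In 19 of the 60 the turn also moved the value by more than its standard error. The ranges of these 19 against Cont were, for timp2.L, -1.0 to 1.24 in Drago, -1.49 to 0.75 in Salam, -2.13 to 0.11 in −Drago and -0.97 to 1.27 in −Salam. For timp3.L (the third probe set) they were -0.44 to 1.81, -0.69 to 1.56, -0.13 to 2.12 and -1.31 to 0.95. For sparc.L they were -0.11 to 1.29, -0.43 to 0.97, -0.42 to 0.98 and -0.42 to 0.98. For col3a1.S (the first) they were -0.22 to 2.79 in Drago, -0.43 to 2.58 in −Drago and -1.55 to 1.46 in −Salam. adam21.L ran from -1.11 to 0.91 in Salam and -1.60 to 0.42 in −Salam. thbs3.L (the second) ran from -1.43 to 0.34 in Drago, and fn1.S (the fourth) from -1.40 to 0.20 in −Salam. With 2 Cont arrays, every comparison with Cont rests on that pair, and no detection calls were used to tell dim probe sets from bright ones.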

Other observations

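The arrays that held the lowest and highest values of the matrix probe sets were counted, with no such count over all tested probe sets. Whether their placing is particular to matrix genes was not tested. Of the 67 probe sets, 9 had their lowest value on Drago replicate 1 and 0 on Salam replicate 3, while 9 had their highest value on Salam replicate 3 and 1 on −Salam replicate 1. The mean over the 67 probe sets ran from -0.31 on Drago replicate 3 to 0.14 on Drago replicate 2, so arrays of one group held both ends of it. Of the marker lists, 20 probe sets for skeletal muscle, 6 for erythrocytes, 9 for leukocytes and 11 for neural tissue also held 0 probe sets past the adjusted limma test in any comparison. Mean levels of the muscle list ran from -0.22 to -0.01 on the Cont arrays and from -0.20 to -0.02 on the Drago arrays.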
